A study of Homo sapiens with 16 samples.

Results

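The transcripts of histone genes were measured over 45 h in SUM-225, a breast cancer line with amplified and over-expressed HER2, during exposure to 1 µM CP724,714, a small molecule inhibitor of the HER2 kinase. They were chosen by their symbols. All probes named HIST1H, HIST2H, HIST3H or HIST4H were taken as replication-dependent cluster genes, and all probes named H2AF, H3F3 or H1F were taken as variant genes. This gave 81 probes for 76 genes, out of 24526 probes for 18631 gene symbols on the array. Of these, 52 probes for 49 genes were detected (p under 0.05) on 3 or more arrays and could be tested, among 16110 such probes in all. The cluster class held 40 of the tested probes (39 genes) and the variant class held 12 (10 genes).

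Per the labels, the cells were grown in Ham's F-12 medium that contained 5% fetal bovine serum, insulin and hydrocortisone, whereas the study's methods give a serum-free medium without insulin for this line, so the medium is uncertain. RNA was taken from parallel cultures every 3 h from 0 h, which served as the untreated reference, to 45 h, and the RNA of each culture was measured on an Illumina bead array of its own, 16 in all. There was 1 array per time point and there were no replicates, so each error below is a standard error (SE) from the scatter of a probe around its own fitted course over all 16 arrays. No time course without the inhibitor was analysed here, so the effect of the inhibitor and that of time in culture cannot be told apart. The cells were of 1 line. ERBB2, which encodes HER2, had its brightest probe at signals of 68900 to 72100 on all 16 arrays, and GRB7, KRT19 and CDH1 were also detected on all of them. VIM and all 4 probes of PTPRC, a leukocyte marker, were detected on 0 arrays, COL1A1 was detected on 5 arrays, and PECAM1, an endothelial marker, was detected on 16 at signals of 282 to 518. The arrays had median signals between 242 and 384, and 57.5% to 61.5% of all probes were detected on each.

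Histones are the proteins around which DNA is wound. The core histones H2A, H2B, H3 and H4 form the nucleosome, and the linker histone H1 binds the DNA between nucleosomes. Most of them are made from clustered genes whose mRNAs accumulate during S phase and end in a stem-loop, bound by SLBP, in place of a poly(A) tail. Variant histones are made from single genes, in most but not all cases with only ordinary polyadenylated mRNAs and throughout the cell cycle. The amplification used for these arrays starts at poly(A) tails, so the signal of a cluster gene comes mainly from whatever polyadenylated transcript it makes, and some cluster genes are known to make such transcripts in cells that stop dividing. How far this applied to each probe was not tested. Many cluster genes also encode nearly identical mRNAs, and the probe sequences were not used here, so the assignment of a signal to 1 member of a family is uncertain.

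The promoters of 6 of the genes described below are shown first. They are the cluster genes HIST1H2AE, HIST1H2AC and HIST1H2BD, which rose, the cluster gene HIST1H3G, which fell late, and the variant genes H2AFX and H2AFZ, which fell. HIST1H4C, which fell most, had no promoter entry, and that of HIST3H2A, which rose more than HIST1H2BD, is not shown. Each line holds the 250 bases before the annotated start, read 5′ to 3′ on the strand of the gene, from RefSeq on GRCh38.p14. Capitals mark the octamer ATTTGCAT, the CCAAT box CCAAT and the TATA box TATAAA, each searched on both strands, where they read ATGCAAAT, ATTGG and TTTATA on the opposite strand.
HIST1H2AE (chr6:26216671-26216920, plus strand): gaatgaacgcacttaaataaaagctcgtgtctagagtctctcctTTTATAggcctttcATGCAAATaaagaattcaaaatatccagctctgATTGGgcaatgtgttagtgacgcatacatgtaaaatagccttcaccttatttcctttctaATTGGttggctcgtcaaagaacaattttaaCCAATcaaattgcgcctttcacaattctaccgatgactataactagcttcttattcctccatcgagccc
HIST1H2AC (chr6:26123922-26124171, plus strand): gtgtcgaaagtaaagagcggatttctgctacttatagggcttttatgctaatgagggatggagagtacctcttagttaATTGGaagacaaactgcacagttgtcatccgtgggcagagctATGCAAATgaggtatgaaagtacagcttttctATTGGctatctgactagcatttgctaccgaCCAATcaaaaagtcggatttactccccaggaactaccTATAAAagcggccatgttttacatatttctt
HIST1H2BD (chr6:26157871-26158120, plus strand): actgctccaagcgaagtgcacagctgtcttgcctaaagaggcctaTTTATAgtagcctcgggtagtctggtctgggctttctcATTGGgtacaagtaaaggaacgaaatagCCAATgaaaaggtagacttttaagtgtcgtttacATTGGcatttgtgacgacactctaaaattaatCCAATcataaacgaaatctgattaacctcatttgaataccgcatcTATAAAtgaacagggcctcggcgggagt
HIST1H3G (chr6:26271414-26271663, minus strand): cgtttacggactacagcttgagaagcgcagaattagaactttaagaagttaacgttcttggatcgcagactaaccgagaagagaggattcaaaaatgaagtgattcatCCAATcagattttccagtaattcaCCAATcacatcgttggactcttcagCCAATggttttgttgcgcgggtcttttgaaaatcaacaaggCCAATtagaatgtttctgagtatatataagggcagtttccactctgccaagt
H2AFX (chr11:119095466-119095715, minus strand): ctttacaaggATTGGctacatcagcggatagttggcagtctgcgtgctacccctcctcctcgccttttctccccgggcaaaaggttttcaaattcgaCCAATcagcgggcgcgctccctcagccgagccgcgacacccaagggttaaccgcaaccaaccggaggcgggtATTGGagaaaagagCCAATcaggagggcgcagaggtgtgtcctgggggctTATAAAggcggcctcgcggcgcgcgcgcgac
H2AFZ (chr4:99950276-99950525, minus strand): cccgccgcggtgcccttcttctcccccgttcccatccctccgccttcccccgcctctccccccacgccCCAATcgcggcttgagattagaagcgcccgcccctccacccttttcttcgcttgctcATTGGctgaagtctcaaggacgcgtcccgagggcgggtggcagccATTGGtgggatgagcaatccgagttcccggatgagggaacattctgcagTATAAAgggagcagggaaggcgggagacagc
The octamer is the element known for binding POU2F1 in histone H2B promoters, and CCAAT boxes are bound by the NF-Y complex. HIST1H2AE and HIST1H2AC each held 1 octamer, at 192 and 130 bases before the start, beside 3 CCAAT boxes. HIST1H2BD held 4 CCAAT boxes and no octamer in this window. HIST1H3G and H2AFX held 4 CCAAT boxes each, and H2AFZ held 3. TATAAA stood 31 bases before the start in HIST1H2AC, H2AFX and H2AFZ, and 28 bases before it in HIST1H2BD.

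Of the 76 genes, 71 matched a RefSeq gene by symbol or by a synonym of a single gene, and 65 had a promoter entry. The octamer was present in 20 of 52 cluster promoters (38.5%) and in 1 of 13 variant promoters, against 1.63% of all 35116 promoters of the same length. It was in 10 of 14 promoters of cluster H2A genes and 9 of 12 of cluster H2B genes, but in 1 of 9 of H3, 0 of 11 of H4 and 0 of 6 of H1 genes. The CCAAT box was present in 44 of 52 cluster promoters (84.6%) and 10 of 13 variant promoters (76.9%), against 32% of all promoters. It was in 3 of 11 promoters of H4 genes and in every promoter of the other 4 histone types of the cluster class. TATAAA, on either strand and at any place in the window, was present in 35 of 52 cluster promoters (67.3%). It was present in 4 of 13 variant promoters and in 10.7% of all promoters. In HIST1H2AE the only such match was TTTATA, 206 bases before the start. These matches are descriptions of letters in a window and were not tested against expression.

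More than the background share of cluster probes rose over the 45 h in CP724,714. By the first-order term of the fitted course, 22 of 40 cluster probes rose over 45 h (55%) and 4 fell (10%), where 26% of all probes tested rose and 21.7% fell (limma, Benjamini-Hochberg adjusted p under 0.05 over 16110 probes). Of the 12 variant probes, 2 rose, both of them probes of H2AFJ, and 4 fell. The median linear change over 45 h, on the log2 scale, was 0.51 for cluster probes and -0.05 for variant probes, against 0.05 for all probes tested. These counts depended on how shifts between arrays were treated. With a step between 21 and 24 h in the fit, 6 cluster probes rose and the cluster median was 0.02. In that fit 10% of all probes rose and their median was 0.095, above that of the cluster class. With each set of 4 consecutive arrays as a factor, 1 cluster probe rose and the cluster median was 0.77. In that fit 0.422% of all probes rose and their median was 0.026. It has a straight line within sets in place of the cubic, with a slope seen over 9 h and scaled to 45 h. Its medians are thus not of like size with 0.51. The difference of 0.56 between the classes is a description with no test, since genes are not replicates of a condition. Estimates ran from -2.25 to 1.80 in the cluster class and from -1.23 to 1.48 in the variant class.

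A course that depended on time was found for 27 of 40 cluster probes and 8 of 12 variant probes (F-test of the 3 course terms), where 51.3% of all probes tested passed. A curved course, that is one that leaves a straight line, was found for 13 cluster probes and 4 variant probes, with 19.3% of all probes tested passing. A probe seen only at the time points where it is high can enter the tested set through its own rise. The counts were therefore also made over the probes detected on all 16 arrays, of which 21 of 30 cluster probes rose and 3 fell, where 29.9% of such probes rose and 24.1% fell in the whole table. The corresponding counts for variant probes were 1 of 11 rising and 4 falling, and the medians were 0.75 and -0.11.

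**Figure D1:**
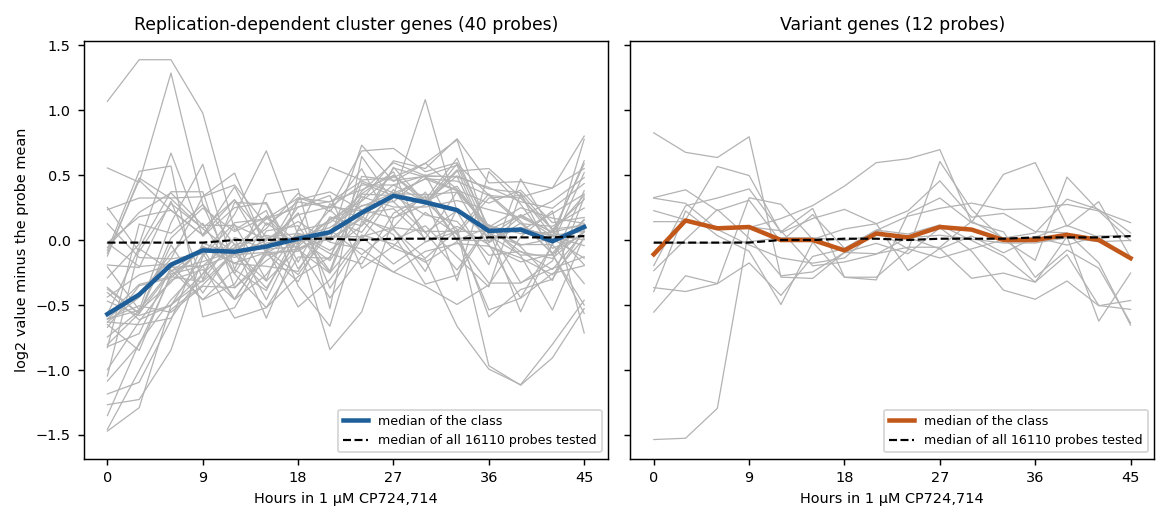
Courses of the tested histone probes, as log2 value minus the mean of the probe (y axis) against hours in 1 µM CP724,714 (x axis). Grey lines are single probes, the thick line is the median of the class and the dashed line is the median of all 16110 probes tested. The cluster median rose from -0.57 at 0 h to 0.34 at 27 h, and the variant median stayed between -0.14 and 0.15.

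The course of the cluster class was not a straight line. After each probe was centred on its own mean, the class median was -0.57, -0.42, -0.19 and -0.08 at 0, 3, 6 and 9 h. It was -0.09, -0.05, 0.01 and 0.06 at 12, 15, 18 and 21 h. It reached 0.21, 0.34, 0.29 and 0.23 at 24, 27, 30 and 33 h, and was 0.07, 0.08, -0.01 and 0.10 at 36, 39, 42 and 45 h. The steepest part of this course was thus the first 9 h, the highest values were those of 24 to 33 h, and a lower level followed at 36 h. The median of all probes tested stayed between -0.02 and 0.03. In the plot of class courses the variant median had no such shape.

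Each part of this course was found in most cluster probes, but the parts were counted separately. The counts below therefore do not show that most probes followed the whole course. For example, HIST1H2AC was lowest at 0 h but highest at 36 h, and HIST2H2AA3 was lowest at 0 h but highest at 45 h. The value at 9 h was above that at 0 h for 32 of 40 cluster probes (80%, median difference 0.34 on the log2 scale), against 52% of all probes tested. The lowest value fell at 0 or 3 h for 26 cluster probes (65%), against 26.2% of all probes. The highest value fell between 24 and 33 h for 22 cluster probes (55%) and 5 of 12 variant probes, against 11.8% of all probes. From 33 to 36 h, 31 of 40 cluster probes were lower (77.5%, median difference -0.24), against 48% of all probes. These counts carry no test, since each compares single arrays.

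**Figure D2:**
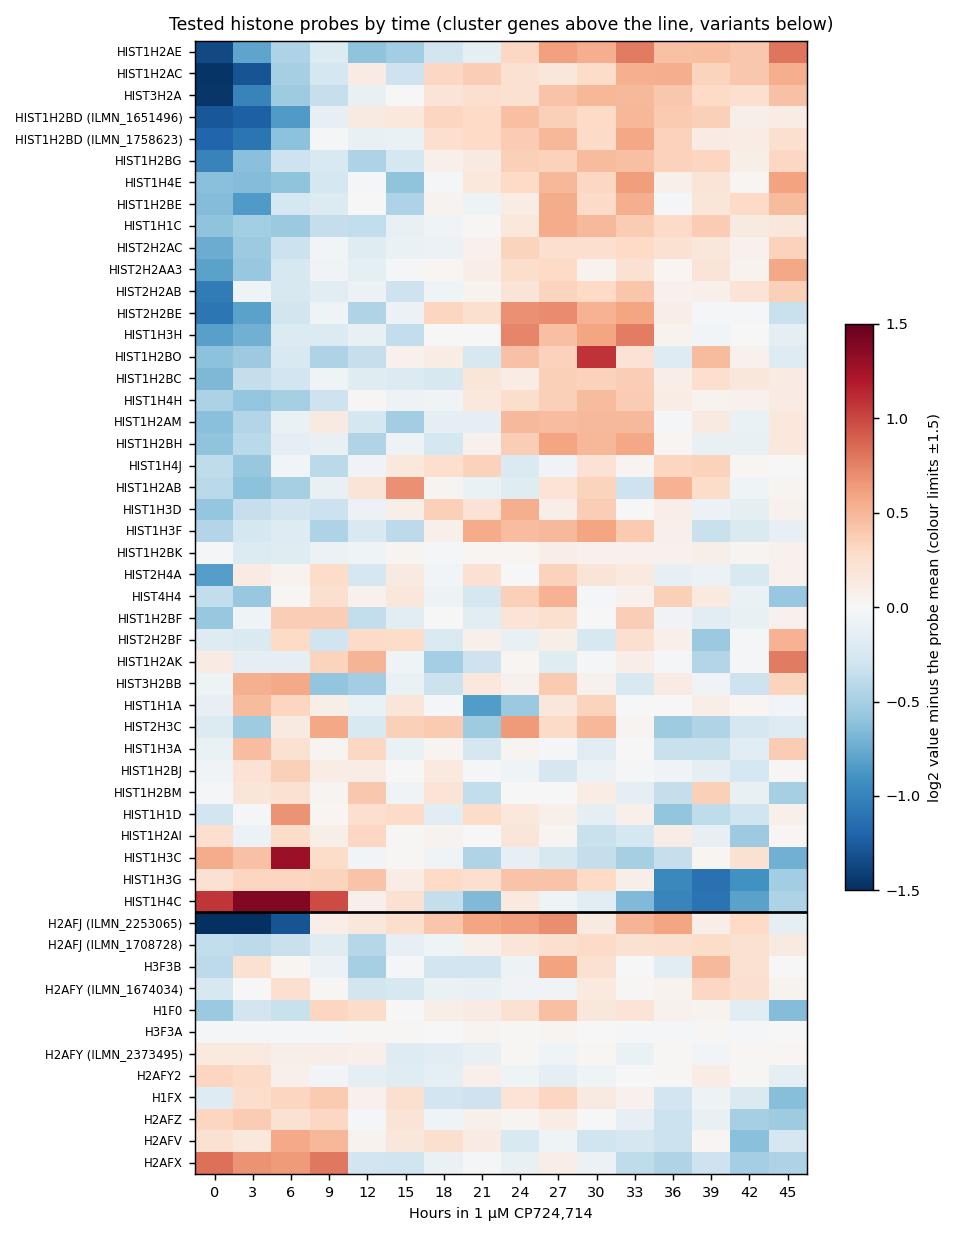
Each row is 1 tested histone probe and each column 1 array (x axis, hours in 1 µM CP724,714), with the log2 value minus the mean of the probe in colour, limited to ±1.5. Rows are ordered by linear change within the cluster class (above the line) and the variant class (below it). The upper rows are low at 0 and 3 h, and HIST1H4C at the foot of the cluster class is high from 0 to 9 h.

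The core histone H2A genes are described first. Of 10 tested probes of cluster H2A genes, 7 rose and 0 fell, with a median linear change of 0.84 (26% of all probes tested rose). Differences between histone types were not tested. HIST1H2AE had normalized log2 values of 8.13, 8.69, 9.02, 9.28, 8.88, 8.96, 9.20, 9.35, 9.79, 10.09, 10.03, 10.26, 9.92, 9.93, 9.88 and 10.28 at the 16 time points in order from 0 to 45 h. These values climbed by 1.14 during the first 9 h and again after 21 h, and the last was 4.42-fold the first. This gave a linear change of 1.80 ± 0.19 (SE, adjusted p = 1.96e-07, limma). HIST1H2AC had values of 10.65, 10.83, 11.62, 11.86, 12.24, 11.81, 12.43, 12.49, 12.35, 12.29, 12.39, 12.65, 12.67, 12.45, 12.52 and 12.67 in the same order. Most of its increase was complete by 12 h, and its linear change was 1.63 ± 0.14 (adjusted p = 1.18e-08, limma). HIST3H2A, an H2A gene outside the main cluster, had values of 9.25, 9.70, 10.17, 10.36, 10.60, 10.70, 10.90, 10.96, 10.93, 11.13, 11.20, 11.19, 11.11, 11, 10.95 and 11.14. Its increase was steepest before 12 h and level after 27 h, with a linear change of 1.49 ± 0.09 (adjusted p = 1.76e-10, limma).

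The other rising H2A probes were those of HIST2H2AC (0.86 ± 0.09), HIST2H2AA3 (0.85 ± 0.10), HIST2H2AB (0.84 ± 0.18) and HIST1H2AM (0.66 ± 0.20). HIST1H2AB (0.51 ± 0.26), HIST1H2AK (0.07 ± 0.26) and HIST1H2AI (-0.42 ± 0.17) had no linear trend past the threshold, and the first 2 of these were detected on 7 and 5 arrays.

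Genes for H2B, the partner of H2A in the nucleosome, behaved in a like manner, with 9 of 14 probes rising, 1 falling and a median of 0.71. HIST1H2BD was measured by 2 tested probes. The first had log2 values of 11.08, 11.12, 11.50, 12.22, 12.48, 12.51, 12.67, 12.64, 12.80, 12.71, 12.64, 12.84, 12.74, 12.71, 12.43 and 12.46 from 0 to 45 h, and the second had 10.76, 10.85, 11.33, 11.92, 11.83, 11.85, 12.20, 12.24, 12.33, 12.44, 12.23, 12.53, 12.29, 12.07, 12.05 and 12.19. Both were lowest at 0 h, had risen by 1.13 and 1.16 at 9 h and were highest at 33 h. Their linear changes were 1.30 ± 0.11 and 1.24 ± 0.12 (adjusted p = 2.24e-08 and 5.74e-08, limma), and both courses were curved (adjusted p = 1.54e-05 and 8.75e-05). A further probe of HIST1H2BD was detected on 0 arrays.

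HIST2H2BE showed the rise and the later decline most clearly, with values of 9.58, 9.86, 10.39, 10.60, 10.21, 10.58, 10.99, 10.91, 11.35, 11.37, 11.19, 11.26, 10.76, 10.63, 10.63 and 10.33. It gained 1.02 in the first 9 h, was highest at 11.37 at 27 h and stood at 10.33 at 45 h, so its linear change of 0.82 ± 0.15 (adjusted p = 0.000184, limma) described the course only in part (test of curvature, adjusted p = 0.000134). The other rising H2B probes were HIST1H2BG (1.15 ± 0.12), HIST1H2BE (1.05 ± 0.19), HIST1H2BO (0.77 ± 0.27), HIST1H2BC (0.76 ± 0.13), HIST1H2BH (0.66 ± 0.19) and HIST1H2BK (0.23 ± 0.05). HIST1H2BO was detected on 3 arrays only, the lowest number that the rule admits, and HIST1H2BK reached 92.2% of the highest signal on an array, a range in which increases are compressed. HIST1H2BJ was the falling member (-0.33 ± 0.11, adjusted p = 0.0156 in limma).

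H2A and H2B genes often lie as divergent pairs that share 1 promoter region. Within a distance of 400 bases between starts, 7 such pairs were found among the 65 members with a promoter entry, and 3 had both genes tested. Unmatched H2B genes, among them the rising HIST1H2BC, HIST1H2BE and HIST1H2BG, could not enter this search, so pairs can be missing from it. HIST2H2BE and HIST2H2AC, 236 bases apart, both rose (0.82 ± 0.15 and 0.86 ± 0.09). HIST1H2AM and HIST1H2BO, 240 bases apart, had linear changes of 0.66 ± 0.20 and 0.77 ± 0.27. HIST1H2BO was detected only at 27, 30 and 39 h, where it was high, which is how it entered the tested set, and both estimates were below 0 with the step (-0.69 and -0.05). In the third pair, 230 bases apart, HIST3H2A rose by 1.49 ± 0.09 while HIST3H2BB had a linear change of -0.01 ± 0.29 (adjusted p = 0.98, limma), and the HIST3H2BB probe was detected on 7 arrays.

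Histone H3 and H4 genes included members of both directions. Of 7 tested H3 probes, 2 rose (28.6%) and 2 fell (28.6%), near the shares over all probes tested (26% and 21.7%), and of 6 tested H4 probes, 3 rose and 1 fell. HIST1H4C had the largest decrease of the tested histone probes, with values of 15.43, 15.75, 15.75, 15.34, 14.44, 14.59, 14.01, 13.70, 14.51, 14.30, 14.21, 13.70, 13.37, 13.25, 13.56 and 13.90 from 0 to 45 h. It stayed at or above 15.34 for the first 9 h, dropped to 14.44 at 12 h and was lowest at 39 h, and its linear change was -2.25 ± 0.26 (adjusted p = 6.13e-07, limma). In the same RNA, HIST1H4E (1.10 ± 0.19), HIST1H4H (0.74 ± 0.11) and HIST1H4J (0.52 ± 0.18) rose, while HIST2H4A (0.17 ± 0.18) and HIST4H4 (0.16 ± 0.23) had no linear trend past the threshold. These genes encode the same or nearly the same H4 protein.

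HIST1H3G fell in another way, with values of 8.99, 9.08, 9.08, 9.09, 9.18, 8.87, 9.05, 9.01, 9.18, 9.18, 9.05, 8.84, 7.79, 7.64, 7.85 and 8.23. It varied between 8.84 and 9.18 until 33 h and between 7.64 and 8.23 afterwards, and the largest single drop, 1.04, lay between 33 and 36 h (linear change -1.23 ± 0.24, adjusted p = 0.000227, limma). HIST1H3C was a dim probe, detected on 13 arrays, with values of 7.06, 6.95, 7.79, 6.78, 6.47, 6.52, 6.45, 6.06, 6.38, 6.26, 6.15, 6.01, 6.16, 6.53, 6.73 and 5.79. Its linear change of -1.03 ± 0.27 (adjusted p = 0.00407, limma) was -0.77 without the 6 h array. The rising H3 genes were HIST1H3H (0.81 ± 0.18) and HIST1H3D (0.43 ± 0.14). HIST1H3F was time-dependent (adjusted p = 0.0029) with no linear trend past the threshold, its highest value being at 30 h.

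Of the cluster H1 genes, HIST1H1C rose, with values of 12.35, 12.45, 12.40, 12.60, 12.59, 12.84, 12.89, 12.97, 13.12, 13.51, 13.44, 13.34, 13.24, 13.34, 13.09 and 13.13 and a linear change of 1.02 ± 0.09 (adjusted p = 1.82e-08, limma). It encodes a linker histone that is also found in cells that do not divide. HIST1H1A (-0.13 ± 0.26) and HIST1H1D (-0.40 ± 0.23) had no linear trend past the threshold, and the probes of HIST1H1B, HIST1H1E and HIST1H1T were not detected on enough arrays to be tested.

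**Figure D3:**
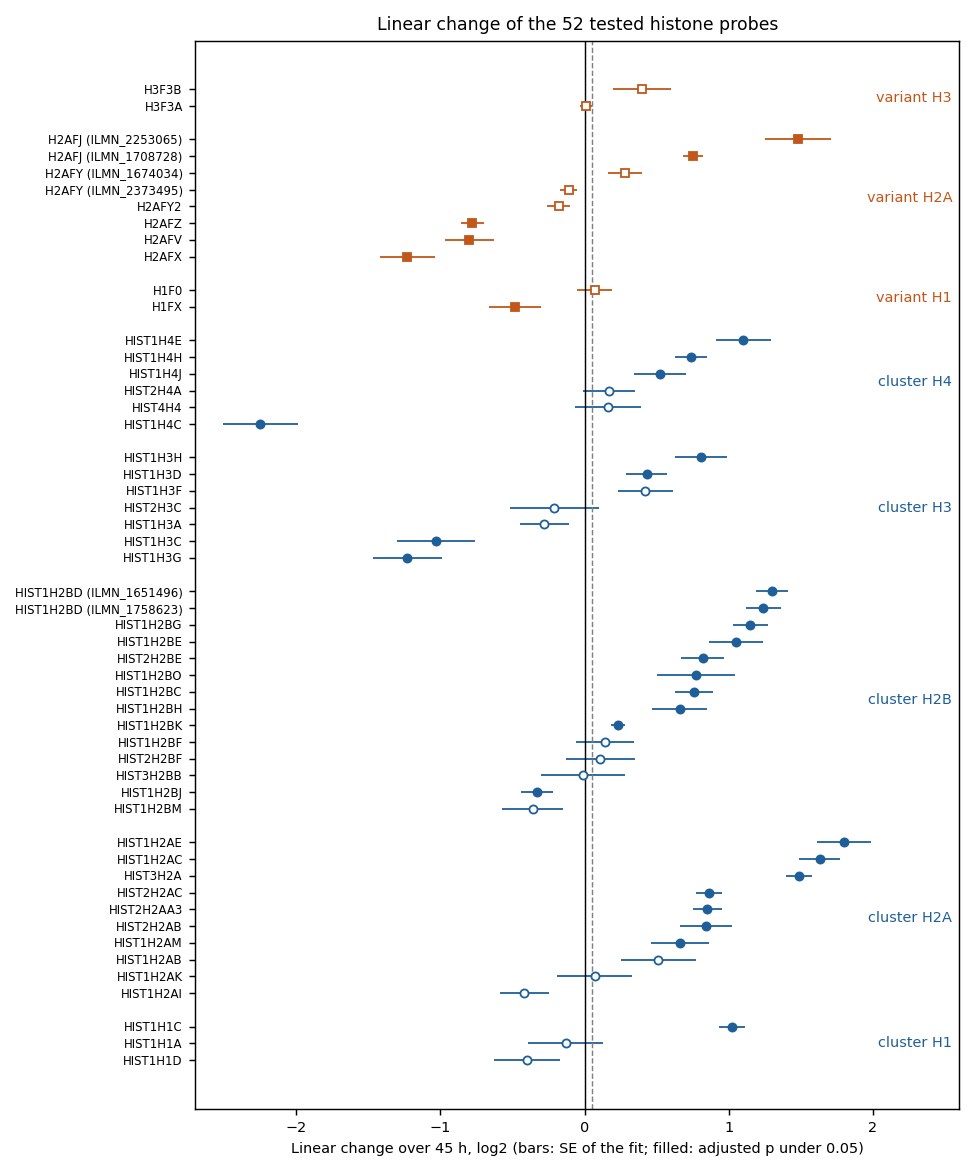
Linear change over 45 h on the log2 scale (x axis) of the 52 tested histone probes (y axis), grouped by class and histone type. Points are estimates, bars are SE of the fit, filled points had an adjusted p under 0.05, and the dashed line is the median of all probes tested (0.05). Cluster H2A and H2B probes lie mostly right of 0, and HIST1H4C lies farthest left at -2.25.

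By locus, 17 of 30 HIST1 probes rose (56.7%) and 4 fell (13.3%), where 26% of all probes tested rose and 21.7% fell. In the other loci, 4 of 7 HIST2 probes and 1 of 2 HIST3 probes rose, with 0 falling. All 4 falling cluster probes were of the HIST1 locus, but this locus held 30 of the 40 tested cluster probes. The difference between loci was not tested. Cluster genes are short and have no introns in most cases, and 5 of the 57 matched in RefSeq span more than 1000 bases by annotation. Of those 5, HIST1H2BD, HIST1H2BK, HIST2H2BE and HIST1H3D rose, and HIST2H2BF (0.11 ± 0.24) had no linear trend past the threshold. The octamer was present in 10 of 18 promoters of rising cluster genes, 1 of 3 of falling genes, 3 of 13 of tested genes with no linear trend and 6 of 18 of genes not tested. It lay mostly in promoters of H2A (10 of 14) and H2B genes (9 of 12), the types in which most probes rose. The octamer and the histone type thus cannot be told apart here, and a link with expression was not tested. The rising HIST1H2BC, HIST1H2BE and HIST1H2BG had no promoter to search.

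Among the variant genes tested, H2AFJ rose, H2AFX, H2AFZ, H2AFV and H1FX fell, and the others had no linear trend past the threshold. Some of the others still had a time-dependent course. H2AFJ, an H2A variant gene known for its accumulation in senescent cells, was measured by 2 probes, and both rose. The brighter had values of 13.54, 13.51, 13.57, 13.73, 13.48, 13.78, 13.84, 13.98, 14.09, 14.15, 14.19, 14.14, 14.15, 14.18, 14.13 and 14.04 from 0 to 45 h, with a linear change of 0.75 ± 0.07 (adjusted p = 4.84e-08, limma). Its increase lay between 12 and 24 h and the level was kept to 45 h. The dim probe had values of 5.13, 5.14, 5.37, 6.76, 6.83, 6.93, 7.08, 7.26, 7.29, 7.36, 6.80, 7.17, 7.26, 6.77, 6.96 and 6.53 and was not detected at 0, 3 and 6 h. Its linear change was 1.48 ± 0.23 (adjusted p = 2.59e-05, limma), and its increase, unlike that of the brighter probe, lay between 6 and 9 h.

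H2AFX encodes H2AX, the variant that is phosphorylated at DNA breaks, and its values were 9.45, 9.30, 9.26, 9.42, 8.34, 8.33, 8.53, 8.60, 8.52, 8.72, 8.54, 8.24, 8.17, 8.31, 8.12 and 8.16. They lay between 9.26 and 9.45 until 9 h and between 8.12 and 8.72 from 12 h on, with no overlap. The linear change was -1.23 ± 0.19 (adjusted p = 2.15e-05, limma). H2AFZ, which encodes the variant H2A.Z, had values of 15.86, 15.92, 15.76, 15.84, 15.52, 15.73, 15.47, 15.61, 15.58, 15.65, 15.53, 15.41, 15.21, 15.42, 15.03 and 15. The means of the 4 sets of consecutive arrays from 0 to 45 h were 15.85, 15.58, 15.54 and 15.16. The change within a set was -0.02 from 0 to 9 h, 0.09 from 12 to 21 h, -0.17 from 24 to 33 h and -0.21 from 36 to 45 h. H2AFZ had a linear change of -0.78 ± 0.08 (adjusted p = 2.55e-07, limma), from signals of up to 87.7% of the highest on an array. H2AFV, which encodes another form of H2A.Z, had values of 7.76, 7.69, 8.10, 8.03, 7.59, 7.70, 7.77, 7.66, 7.30, 7.47, 7.24, 7.28, 7.21, 7.56, 6.91 and 7.28. Its linear change was -0.80 ± 0.17 (adjusted p = 0.000549, limma), and its values from 24 h on were at most 7.56, below each of those before 24 h (7.59 or more).

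The linker histone variants took other courses. H1F0 encodes the linker histone H1.0, known to accumulate in differentiated and resting cells, and its values were 13.34, 13.62, 13.56, 14.22, 14.17, 13.90, 13.98, 14.02, 14.12, 14.35, 14.07, 14.10, 13.96, 13.95, 13.72 and 13.24. These rose by 0.88 in 9 h, stayed high to 33 h and returned at 45 h to the level of 0 h, so that the linear change was 0.07 ± 0.12 (adjusted p = 0.653) while the course was time-dependent (adjusted p = 0.000108, limma). H1FX had values of 10.66, 11.12, 11.18, 11.25, 10.92, 11.10, 10.57, 10.55, 11.06, 11.18, 10.99, 10.92, 10.57, 10.78, 10.64 and 10.22. Its linear change of -0.48 ± 0.18 had an adjusted p of 0.0349, which was 0.21 without the 45 h array.

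H3F3A and H3F3B both encode the replacement histone H3.3. H3F3A had values of 16.08, 16.08, 16.08, 16.09, 16.12, 16.12, 16.10, 16.14, 16.12, 16.14, 16.11, 16.08, 16.08, 16.12, 16.09 and 16.10, which spanned 1.05-fold (linear change 0.01 ± 0.04, adjusted p = 0.792, limma). It was at or near the highest signal of every array, where an increase could not be measured. H3F3B had values of 10.72, 11.34, 11.15, 11.03, 10.62, 11.10, 10.83, 10.83, 11.04, 11.72, 11.35, 11.12, 10.96, 11.60, 11.34 and 11.11, with a linear change of 0.40 ± 0.20 (adjusted p = 0.119, limma). Of the macroH2A genes, the 2 tested H2AFY probes had linear changes of -0.11 ± 0.06 and 0.28 ± 0.12, and H2AFY2 had -0.18 ± 0.08, none of them past the threshold for a linear trend. The brighter H2AFY probe and H2AFY2 were time-dependent (adjusted p = 0.031 and 0.00194, limma), and both were lowest at 15 h.

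**Figure D4:**
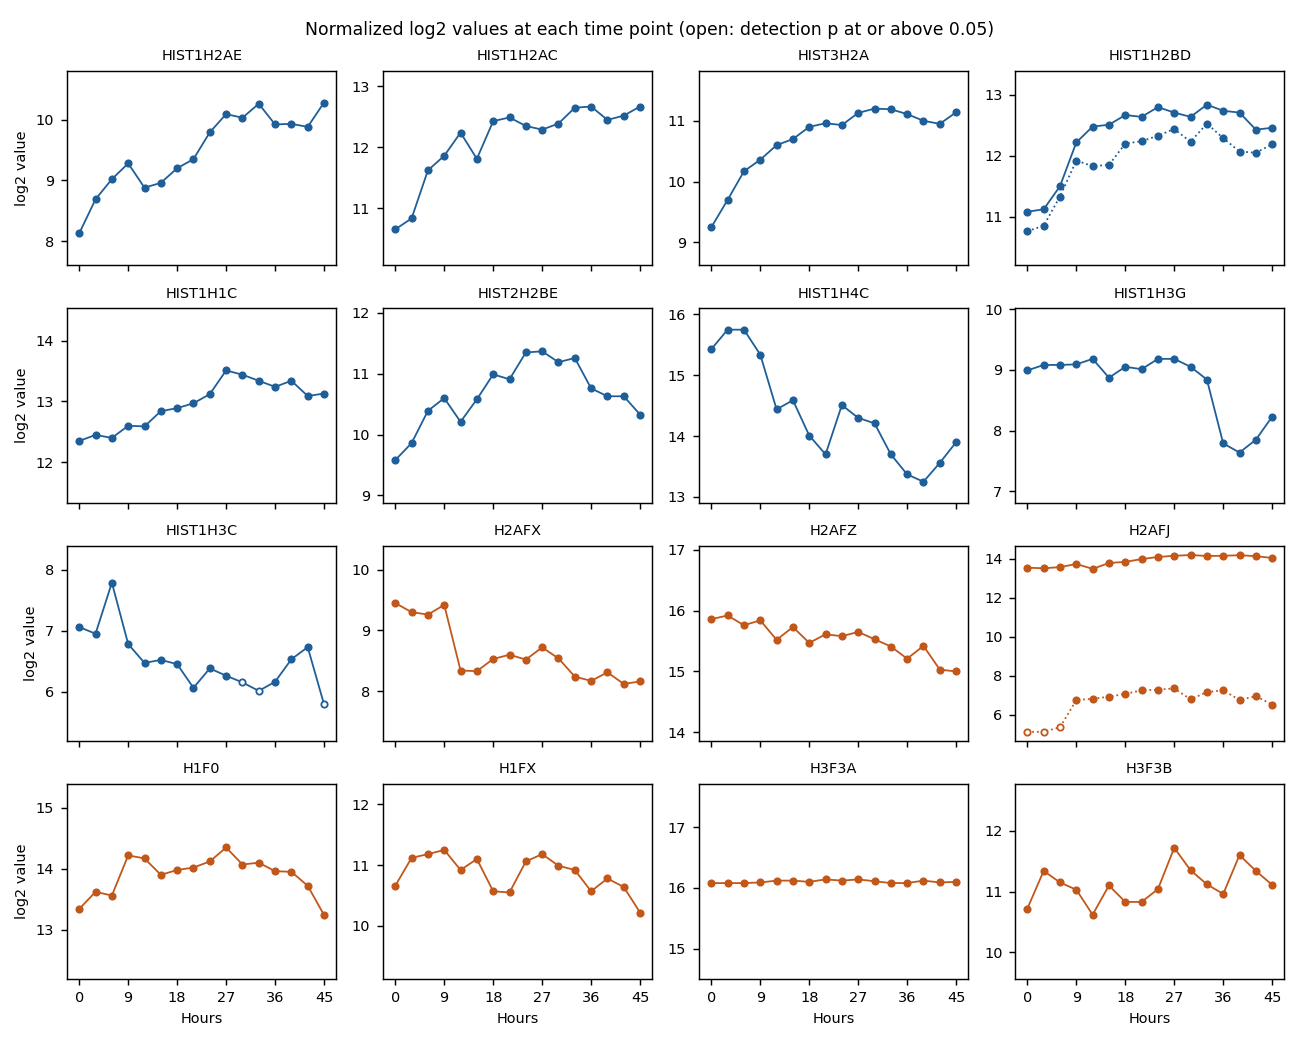
Normalized log2 values (y axis) at each hour (x axis) of 16 histone genes, with cluster genes in blue and variant genes in orange, and with a dotted line for the dimmer probe where 2 were tested. Open circles had a detection p at or above 0.05, and all panels span at least 3.2 log2 units. HIST1H4C and H2AFX step down between 9 and 12 h, HIST1H3G steps down between 33 and 36 h, and HIST1H2AC, HIST3H2A and HIST1H2BD rise before 12 h.

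Several of these changes lay at the edges of consecutive sets of 4 arrays (0 to 9, 12 to 21, 24 to 33 and 36 to 45 h). The mean of H2AFX was 9.36, 8.45, 8.50 and 8.19 in these sets, that of HIST1H3G was 9.06, 9.03, 9.06 and 7.88, and that of HIST1H4C was 15.57, 14.19, 14.18 and 13.52. The labels name no batch, slide or date, and a change of expression and a shift between sets of arrays cannot be told apart at such an edge. When the set was fitted as a factor, the trend was taken within sets alone, as a straight line in place of the cubic. Its slope, seen over 9 h, was scaled to 45 h, so estimates can exceed the observed range. In this fit 1 of the 22 rising cluster probes was past the threshold (HIST1H2AE, 2.92 ± 0.58, adjusted p = 0.0326 in limma), where 0.422% of all probes rose and 0.478% fell. All 22 had positive estimates there, but they had been called rising on these same arrays, so their signs are no separate support. The share with a positive estimate among all rising probes is not given here. The estimates of 2 of the 4 falling cluster probes and 3 of the 4 falling variant probes stayed negative, with 0 past the threshold. HIST1H3G turned to 0.13 ± 0.60 and HIST1H2BJ and H2AFV turned to 0.28 and 0.29.

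When a single step between 21 and 24 h was fitted instead, 6 of the 22 rising cluster probes stayed past the threshold (10% of all probes rose and 9.17% fell). They were both probes of HIST1H2BD and those of HIST1H1C, HIST1H2AC, HIST1H4J and HIST3H2A. HIST1H2AE was no longer past it (0.68 ± 0.40, adjusted p = 0.25 in limma). The estimates of 4 of the 22 turned negative, namely those of HIST1H2AM (-0.69), HIST1H2BH (-0.39), HIST1H3H (-0.35) and HIST1H2BO (-0.05). HIST1H4C (-4.44 ± 0.37, adjusted p = 2.29e-07 in limma) and HIST1H3G (-2.32 ± 0.54, adjusted p = 0.00504) also stayed past it, as did both H2AFJ probes, H2AFX, H2AFZ and H1FX. The drops of HIST1H4C and H2AFX lay between 9 and 12 h, and that of HIST1H3G between 33 and 36 h. A step between 21 and 24 h therefore cannot separate a shift between sets from a change of expression at those edges. The values of HIST1H4C ran from 13.25 to 15.75 and those of HIST1H3G from 7.64 to 9.18. Their estimates here are thus terms fitted beside the step, not observed falls.

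A total of 29 histone probes were not tested. Of these, 25 were detected on 0 arrays and 4 on 1 array. The members just inside the rule were HIST1H2BO with 3 arrays and HIST1H2AK with 5, and those just outside were HIST1H3I, HIST1H3J, HIST1H4B and 1 probe of H2AFY with 1 array each. Among variant genes, H1FOO, H2AFB1, H2AFB2 and H2AFB3, which are known from germ cells, were detected on 0 arrays. All of the cluster probes not tested were of the HIST1 locus except that of HIST3H3, and they included 7 of the 13 probes of H4 genes.

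Other genes of histone supply were examined to see whether they shared the direction of the histone genes. Of 12 tested genes for histone mRNA processing and transcription, 2 rose and 5 fell, with a median linear change of -0.36. Over all probes tested, 26% rose and 21.7% fell, and the counts of the lists that follow are to be read beside these shares. SLBP, the stem-loop binding protein, had values of 11.96, 11.76, 11.28, 11.18, 10.62, 10.88, 10.80, 11.02, 10.75, 10.78, 10.78, 10.69, 10.85, 10.89, 11.03 and 11.14 from 0 to 45 h. It fell within 12 h and recovered in part by 45 h (linear change -0.65 ± 0.12, adjusted p = 0.000145, limma). NPAT, the coactivator of cluster transcription, had a linear change of -0.48 ± 0.22 (adjusted p = 0.0862), and POU2F1 had 0.10 ± 0.20. CPSF2 and SYMPK, members of the cleavage complex, rose (0.35 ± 0.11 and 0.34 ± 0.13), and CPSF3, its endonuclease, fell (-0.50 ± 0.11). CASP8AP2, LSM11 and THEX1 were not tested.

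Histone chaperones, which carry histones and place them on DNA, fell in 13 of 21 cases and rose in 1, with a median of -0.54. ASF1B, the H3-H4 chaperone of dividing cells, fell most, with values of 11.16, 11.04, 11.16, 11.12, 9.68, 9.58, 9.21, 9.19, 9.59, 9.62, 9.31, 8.92, 8.43, 8.17, 8.50 and 7.81 and a linear change of -3.20 ± 0.28 (adjusted p = 2.03e-08, limma), while its paralogue ASF1A had 0.01 ± 0.09. The CAF-1 subunits CHAF1B (-2.85 ± 0.27) and CHAF1A (-1.99 ± 0.18), which place H3-H4 behind the replication fork, and NASP (-1.41 ± 0.15), which binds the soluble pool, also fell. UBN1, a subunit of the HIRA complex for H3.3, rose (0.32 ± 0.13, adjusted p = 0.0469 in limma), and HIRA, detected on 9 arrays, had 0.57 ± 0.29 (adjusted p = 0.122). CABIN1 (-0.28 ± 0.17), DAXX (-0.23 ± 0.11) and ATRX (0.18 ± 0.26) of the same list had no linear trend past the threshold. No probe carried the symbol HJURP.

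Complexes that exchange H2A.Z into chromatin had 5 of 10 genes falling and 1 rising. YEATS4 (-1.35 ± 0.16), RUVBL1 (-1.14 ± 0.10), RUVBL2 (-0.93 ± 0.08), ACTL6A (-0.57 ± 0.07) and ACTR6 (-0.49 ± 0.11) fell, and DMAP1 rose (0.33 ± 0.10). SRCAP (0.17 ± 0.18), EP400 (-0.29 ± 0.15), VPS72 (-0.09 ± 0.10) and ZNHIT1 (0.18 ± 0.09) had no linear trend past the threshold. A link with H2AFZ or H2AFV was not tested. CENPA, the H3 variant of centromeres, whose symbol lies outside the rule for the variant class, had values of 11.29, 11.61, 11.67, 11.87, 11.58, 11.31, 11.33, 10.97, 11.54, 11.58, 11.14, 10.83, 9.44, 9.07, 9.07 and 9.17. It was at or above 10.83 until 33 h and at or below 9.44 from 36 h on, the same interval in which HIST1H3G dropped (linear change -2.65 ± 0.28, adjusted p = 2.39e-07, limma).

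All 22 tested genes of DNA replication fell, with a median of -2.29, while 22 of 40 cluster probes rose in the same fit. RRM2, a subunit of ribonucleotide reductase, fell by 4.36 ± 0.40 on the log2 scale and PCNA, the sliding clamp, fell by 1.61 ± 0.18 (adjusted p = 4.05e-08 and 3.89e-07, limma). PCNA had values of 14.50, 14.52, 14.41, 14.20, 13.03, 13.05, 13.02, 13.01, 13.07, 13.13, 12.88, 12.84, 12.89, 12.93, 12.94 and 12.98. The centred median of the list was 1.49, 1.53, 1.33 and 1.08 from 0 to 9 h and -0.20, -0.22, -0.26 and -0.35 from 12 to 21 h. It was -0.14 to -0.49 from 24 to 33 h and -0.85 to -0.72 from 36 to 45 h. HIST1H4C and H2AFX dropped at the same interval between 9 and 12 h, whereas the cluster median had its steepest increase before it. This interval is an edge between sets of 4 arrays, where a change of expression and a shift between sets cannot be told apart. Fits with the step or the set are not given here for the genes outside the histone classes. Whether less replication had a part in any histone value was not tested.

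**Figure D5:**
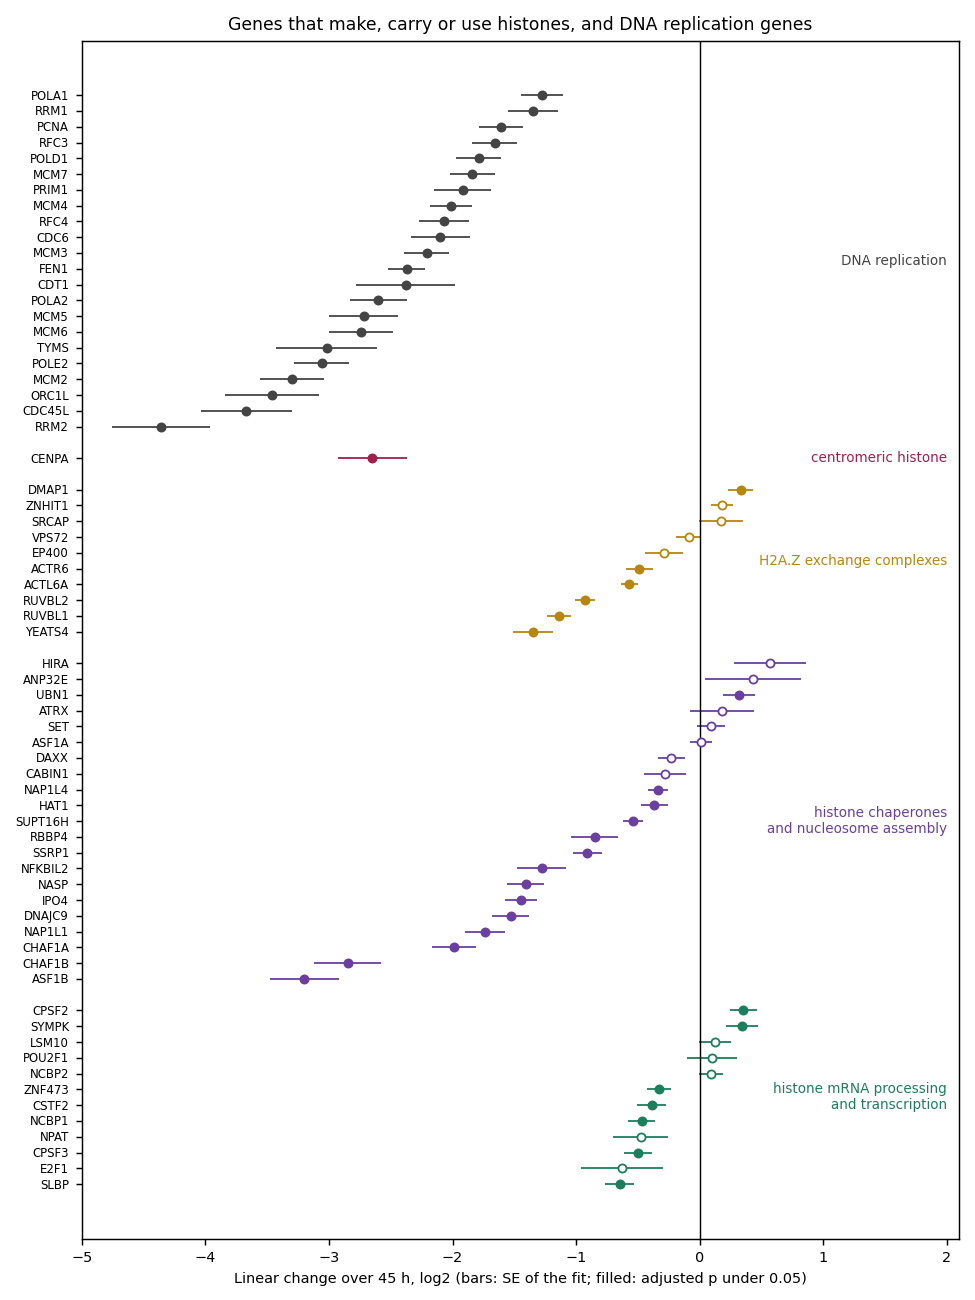
Linear change over 45 h on the log2 scale (x axis) of tested genes (y axis) for histone mRNA processing, chaperones, H2A.Z exchange, the centromeric histone and DNA replication. Points are estimates from the brightest probe of each gene, bars are SE of the fit and filled points had an adjusted p under 0.05. All 22 replication genes lie left of 0, with RRM2 at -4.36 farthest left.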

How the data were processed

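The authors amplified total RNA with the Illumina TotalPrep-96 kit and deposited a linear signal intensity for each probe and array, with no background subtraction or normalization. They also deposited a detection p-value for each signal, and quantile normalized their data later. The Ref8v2 array is named in the study's methods but not in the labels, and the scanning software and genome build are not given in the sources used here.

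Intensities were background-corrected with the normexp model, with an offset of 16 (which shrinks the changes of dim probes), quantile normalized and put on the log2 scale by neqc (limma 3.58.1, R 4.3.3). The tested set was limited to probes detected (p under 0.05) on 3 or more arrays. To each probe a cubic in hours was fitted with lmFit and eBayes with an intensity trend, a procedure tested on simulated data. Two-sided p-values were adjusted over all 16110 probes (Benjamini-Hochberg, threshold 0.05). Linear change is the first-order term scaled to 45 h. Because each time point had 1 sample, errors come from scatter around the course, which includes real changes too abrupt for a cubic. Precision is limited by the number of arrays.

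Samples were grouped by the time in their labels. The members, gene lists and tests were chosen with earlier results of these data known. Any tested member could be named. Values at every time point were given for the 3 genes past the threshold that rose most and the 3 that fell most in each class, and for H2AFX, H2AFZ, H3F3A, H3F3B, H1F0 and H1FX. Time courses of HIST1H2BD, HIST2H2BE, HIST1H1C, SLBP, ASF1B, CENPA and PCNA were added after their values were seen. Other lists used the brightest probe of each gene. Symbols were matched to RefSeq on GRCh38.p14, and 5 H2B symbols that are synonyms of several genes were left unmatched. Alternatives changed the background correction (none, floor 16), the offset (50), the normalization (median scaling or cyclic loess), the filter (none, or detection on all 16 arrays) and the course (a straight line, or a natural spline with 4 degrees of freedom). Others added a step between 21 and 24 h, a factor for each set of 4 arrays or array weights, kept the brightest probe of each gene, or left out each array in turn. The fit with the set factor had a straight line in hours in place of the cubic. Plots were made in matplotlib 3.10.9 (Python 3.11.15).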

Additional observations from a re-analysis of the deposited data

How the results depend on the processing

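Of 289 recomputed counts and medians, 270 stayed close to the reported value, 19 moved and 0 changed sign. The median linear change of cluster probes (0.51) was 0.30 without background correction, where background is left in the signal, 0.11 without the detection filter, where undetected probes enter, and 0.75 for probes detected on all 16 arrays. It was 0.02 with the step between 21 and 24 h and 0.77 with the set of 4 arrays as a factor. The medians of all probes in these 2 fits were 0.095 and 0.026. Values with the set are slopes within sets of 9 h scaled to 45 h, and are not of like size with the others. The difference between cluster and variant medians (0.56) was 0.20 without the filter, 0.85 for probes detected on all 16 arrays, 0.33 with the step and 0.86 with the set. The variant median was -0.31 with the step. With the step, 6 cluster probes rose and 2 fell, and with the set 1 rose and 0 fell. Rising variant probes numbered 1 for probes detected on all 16 arrays, 1 with the brightest probe of each gene and 0 with the set, where 0 variant probes fell. A straight line called 5 variant probes time-dependent. The cause of the changes with the step and the set was not tested.

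Leaving out 1 array at a time gave 25 to 27 time-dependent, 18 to 23 rising, 3 to 6 falling and 13 to 16 curved cluster probes, with a median of 0.39 to 0.62. The lowest rising count came without the 0 h array. The variant class gave 7 to 9, 2 to 3, 3 to 5 and 3 to 5 probes and a median of -0.08 to -0.04, and the difference was 0.44 to 0.68. Named probes whose sign turned were H1F0 (-0.22 with the step, -0.19 with the set, and -0.15, -0.01 and -0.01 without the 0, 3 and 6 h arrays, against 0.37 without the 45 h array), H3F3A (-0.07 with median scaling, -0.03 with the set), H2AFV (0.29), HIST1H2BJ (0.28) and HIST1H3G (0.13) with the set, and H3F3B (-0.39), HIST1H2AM (-0.69), HIST1H2BH (-0.39), HIST1H2BO (-0.05) and HIST1H3H (-0.35) with the step, none of them past the threshold there. HIST1H2BK lost its call with median scaling (0.14). The median of all probes was 0.003 to 0.05 over the scalings, and rising probes made up 54.5% of linear calls, or 48% with cyclic loess. No paired analysis was possible because the labels give a single array for each time point. Probes near background or near the highest signal have compressed fold changes.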
